A study of Mus musculus with 20 samples.

Results

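The response of young mice to radiation was described by comparing 5 arrays titled Young-Irradiated with 5 arrays titled Young-UnIrradiated, 10 of the 20 arrays in the series. The arrays were chosen by title alone, and every gene with a usable probe entered the comparison. All animals were female C57BL/6J mice of 2 months, and the other 10 arrays came from mice of 24 months. The irradiated mice received 4 Gy of x-rays and the unirradiated mice 0 Gy. Blood was drawn from the heart at death, 24 h after exposure, into PAXgene solution, which lyses blood cells and stabilises RNA, so that red cells, platelets and every class of leukocyte entered the same extract. The design text states 5 independent experiments per age. In whole blood, fewer cells of a type and less RNA per cell cannot be told apart, and each p-value below measures the spread between these arrays.

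Ionising radiation breaks DNA, and the damage activates the kinase ATM and the transcription factor p53, which switches on genes for cell cycle arrest and cell death. Lymphocytes are among the most radiosensitive cells of the body and B cells the most sensitive of them, whereas neutrophils, platelets and red cells are non-dividing or lack a nucleus, so the make-up of blood changes within a day. Nucleic acid from damaged or dying cells can also engage sensors that induce type I interferon, a cytokine that raises a large set of antiviral genes.

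Each array measured 1 colour (Cy3) at 39429 non-control probes. Levels are log2 intensities minus the array's 75th percentile, so that 0 is the signal of the 75th percentile probe and a difference of 1 is a 2-fold change. The 75th percentile lay between 135 and 230.0 intensity units, and 50.6 to 57.9% of spots were well above background. The arrays lay on 3 slides: slide 1 held unirradiated replicates 1 to 4, slide 2 unirradiated replicate 5 with irradiated replicates 1 to 3, and slide 3 irradiated replicates 4 and 5. Only slide 2 held both groups, so a fit with slide as a block rests on 3 irradiated arrays against 1, and the difference within slide 2 is given beside the values below. Liver transcripts were present at widely different amounts. The mean level of 30 hepatocyte genes was 4.82, 6.21, -1.92, 7.45 and 0.61 in unirradiated replicates 1 to 5 and -2.0, 0.75, -1.57, 7.07 and -1.95 in irradiated replicates 1 to 5. The 4 arrays above 4 (unirradiated replicates 1, 2 and 4 and irradiated replicate 4) are called the arrays of high hepatocyte level, and results were also computed on the other 6.

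Of 16355 genes tested, 4432 (27.1%) differed at an adjusted p under 0.05 in limma's moderated test, 2679 higher (16.4%) and 1753 lower (10.7%) at 4 Gy. Only these are said to have risen or fallen. The 5 irradiated and 5 unirradiated values did not overlap for 3292 genes (20.1%), 2041 higher (12.5%) and 1251 lower (7.65%), and 3081 of these genes passed the test. Most changes were moderate: 898 increases were under 2-fold, 1306 were 2- to 4-fold, 414 were 4- to 8-fold, 55 were 8- to 16-fold and 6 were larger. The decreases were distributed alike, with 649, 845, 215, 36 and 8 genes in the same classes.

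Increases were more frequent among bright genes and decreases among dim ones. With genes split by mean level into 4 equal classes, from dimmest to brightest, 12.9, 13.2, 16.3 and 23.1% rose and 18.9, 10.7, 7.83 and 5.38% fell. Increases made up 60.4% of the calls. That share depended on the scaling: it was 36.4% when each array was scaled over the probes well above background on all 10 arrays, which moved the median change of all genes from -0.05 to -0.26, and 72.7% with normexp background correction, under which 832 genes rose and 312 fell. With the replicate number as a block, 3505 rose and 2973 fell. With slide as a block 112 genes passed, and 2677 of the 2679 increases and 1747 of the 1753 decreases kept their sign within slide 2. Without the 4 arrays of high hepatocyte level every one of the 4432 kept its sign, and 1973 of the increases and 955 of the decreases passed again. With normexp correction all 2679 increases but only 1503 of the 1753 decreases kept their sign, and 832 and 302 passed again.

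**Figure D1:**
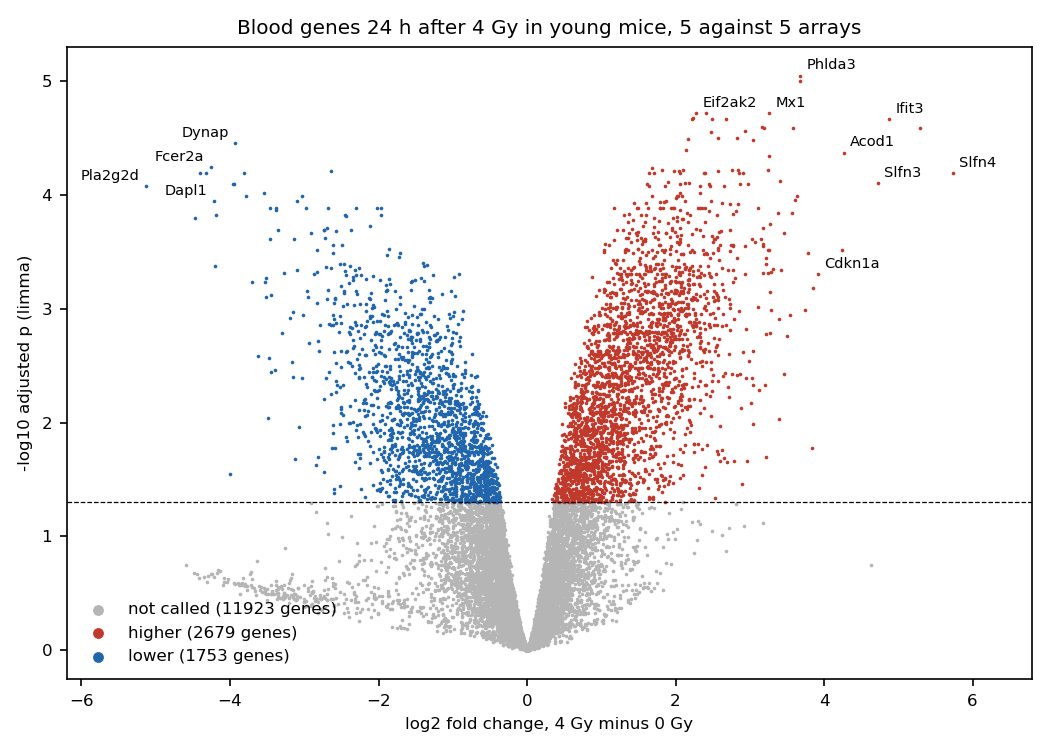
The log2 fold change of each tested gene (4 Gy minus 0 Gy, x axis) is plotted against -log10 of limma's adjusted p (y axis), 1 point per gene, 5 against 5 arrays, with the threshold of 0.05 dashed. The 2679 genes called higher reach 5.74 at Slfn4 and the 1753 called lower reach -5.13 at Pla2g2d; the grey tail at the lower left holds genes of large difference and wide spread that were not called.

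The largest increase belonged to Slfn4, a Schlafen protein of myeloid cells induced by interferon (probe at chr11:83002974-83003033, mm9). Its level was -1.97, -2.08, -1.90, -2.97 and -2.53 in unirradiated replicates 1 to 5 and 4.23, 2.19, 3.89, 2.43 and 4.50 in irradiated replicates 1 to 5, so the highest unirradiated value lay 4.09 below the lowest irradiated one. The increase was 53.3-fold (5.74 ± 0.47, adjusted p = 6.45e-05; 5.96 within slide 2, adjusted p = 0.0417 with slide as a block). Its relative Slfn3 rose 26.4-fold (well above background on 1 of 5 unirradiated arrays). Ifit3 and Ifit3b encode near-identical antiviral proteins that bind foreign RNA, and the probes of such copies may cross-hybridise. Ifit3 (probe at chr19:34663105-34663164) moved from 0.78, 0.10, 0.61, 1.15 and 0.48 to 5.81, 4.71, 5.50, 5.19 and 6.27, 29.3-fold higher, and Ifit3b rose 39.3-fold.

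Acod1 makes itaconate, an antimicrobial and anti-inflammatory metabolite of activated myeloid cells (probe at chr14:103455171-103455231). It stood at -3.80, -4.73, -3.70, -3.73 and -3.81 without and at 0.46, -0.42, -0.17, 0.61 and 1.07 with irradiation, with no overlap, a rise of 19.2-fold (well above background on 4 of 5 unirradiated arrays) (adjusted p = 4.28e-05). Entpd3, an ectoenzyme that degrades extracellular ATP, went from -3.99, -5.39, -4.31, -6.13 and -3.83 to -0.03, -1.38, -0.18, -1.03 and 0.22 and rose 19-fold (well above background on 3 of 5 unirradiated arrays). Rufy4, a RUN and FYVE domain protein linked to autophagy, went from -2.17, -4.02, -2.19, -3.56 and -2.75 to 1.34, 0.24, 0.34, 0.48 and 1.80 and rose 13.7-fold (well above background on 4 of 5 unirradiated arrays). Both genes were lower in each unirradiated than in each irradiated array, although the unirradiated values spread widely. Upk3b, a uroplakin of mesothelium, rose 13.3-fold (well above background on 1 of 5 unirradiated arrays), and the mesothelial genes are described at the end. Anxa8, an annexin, rose 11.0-fold (well above background on 2 of 5 unirradiated arrays). Cxcr1, a neutrophil receptor for chemokines, rose 9.64-fold (well above background on 4 of 5 unirradiated arrays). Ackr3, a chemokine-scavenging receptor, rose 6.06-fold (well above background on 1 of 5 unirradiated arrays), with an overlap-free gap of 0.63.

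The largest fitted decrease was that of Pla2g2d, a secreted phospholipase A2 of lymphoid tissue and antigen-presenting cells (probe at chr4:138337867-138337926). Its level was 0.65, -0.75, 0.27, -0.73 and 0.14 in the unirradiated and -5.58, -6.53, -5.10, -4.65 and -4.21 in the irradiated arrays, the lowest unirradiated value lying 3.46 above the highest irradiated one. The fitted difference was -5.13 ± 0.44 (adjusted p = 8.38e-05; -5.88 within slide 2). Its probe was well above background on 1 of 5 irradiated arrays, so the size of this fall rests largely on signal at background and its rank among the decreases is uncertain. Fcer2a encodes CD23, an IgE receptor on mature B cells (probe at chr8:3682343-3682402), and it fell from 2.34, 1.57, 2.61, 0.90 and 2.25 to -2.01, -2.36, -2.50, -2.80 and -1.96, a fall of 19.2-fold. Dapl1, a gene of naive T cells (probe at chr2:59342824-59342883), fell from 3.06, 2.08, 3.16, 1.81 and 2.65 to -1.26, -2.57, -1.15, -2.37 and -0.99, a fall of 18.6-fold. Neither gene's groups overlapped, and both genes stayed measurable on every irradiated array.

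Other large decreases took genes to the background of the arrays. Crisp3, a cysteine-rich secretory protein, stood at -0.92, -1.87, -0.84, -2.59 and -1.99 in the unirradiated arrays and was not well above background on any irradiated array, a fall of at least 6.15-fold. Such a fold is a lower bound, taken against the lowest signal that counts as well above background. Dynap, a membrane protein that binds dynactin, fell at least 3.99-fold by the same measure and had the lowest adjusted p of the decreases (3.55e-05). Crip3, a LIM domain protein, fell at least 5.40-fold. Ccr6, a chemokine receptor of B cells and helper T cells, fell 15.4-fold, from 2.67, 2.11, 2.87, 1.44 and 2.48 to -1.94, -0.73, -1.53, -1.65 and -2.31, and was measured on all arrays. Vpreb3, a B lineage protein, fell 13-fold.

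**Figure D2:**
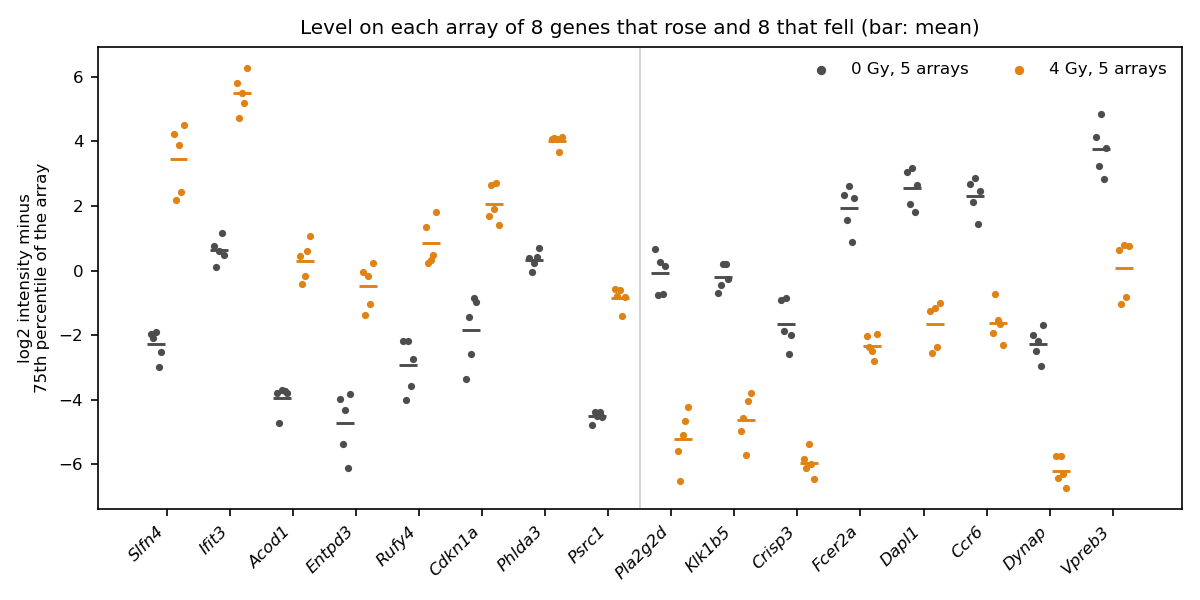
Each point is the level of a gene on 1 array (y axis, log2 intensity minus the 75th percentile of the array), grey for the 5 unirradiated and orange for the 5 irradiated arrays, with a bar at the mean, for 8 genes that rose (left) and 8 that fell (right). In all 16 the groups do not overlap; Slfn4 and Ifit3 are separated by 4.09 and 3.56, and Psrc1, Crisp3 and Dynap lie at the arrays' background in 1 group.

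A further set of genes was measured well above background in 1 group alone. Probes of 37 genes were well above background on all 5 irradiated and no unirradiated array, and those of 66 genes on all 5 unirradiated and no irradiated array. The largest lower bounds among the increases were those of Psrc1, a microtubule protein and p53 target (at least 11.8-fold; probe at chr3:108190744-108190803), Fap, a serine protease of activated fibroblasts (at least 5.93-fold), Trpm6, a magnesium channel (at least 5.07-fold), Inka2, an inhibitor of the kinase PAK4 (at least 4.84-fold), and Prss23, a secreted serine protease (at least 4.75-fold). Psrc1 moved from -4.77, -4.38, -4.49, -4.37 and -4.54 to -0.57, -0.80, -0.60, -1.41 and -0.81, and irradiated replicate 4 was the lowest of the irradiated arrays. Meig1, a gene of sperm formation, rose at least 3.93-fold. Among the decreases the largest bounds were those of Klk1, Crisp3 and Crip3. With normexp correction, which pulls dim signals together, Meig1, Fap, Trpm6, Inka2, Prss23, Klk1, Crisp3, Crip3 and Dynap no longer passed, while Psrc1 did.

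Neighbouring genes moved together in several places, chosen here after their values were seen. Of 13475 tested genes that RefSeq places on a chromosome, 13 runs of 5 or more consecutive genes all rose and 2 runs all fell. The longest was the natural killer gene complex on chromosome 6, where 15 genes in order from Klrk1 to Klra2 rose 2.82- to 5.04-fold. The second was the glandular kallikrein cluster on chromosome 7, secreted proteases best known from salivary gland, where 9 genes from Klk1b8 to Klk1 fell and in none of them did the groups overlap. Most of these kallikreins passed the background filter through the unirradiated arrays alone, so they had to be dimmer at 4 Gy. Stefins on chromosome 16 formed a run of 7 (4.79- to 9.53-fold), Schlafen genes on chromosome 11 a run of 6 (2.17- to 53.3-fold) and Ifit genes on chromosome 19 a run of 6 (3.98- to 39.3-fold). Runs of 5 or 6 also rose at the Ly6, Clec, Serpinb6, Cd300, Cd200r, Phf11, Trim30 and Ccl genes. The other falling run was 5 MHC class II genes on chromosome 17 (2.61- to 6.24-fold). Near-identical sequence within each cluster can make 1 transcript light up several probes, so the members are not independent and single members are uncertain.

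Most kallikreins of the run were at or near background on the irradiated arrays, so the sizes of their falls are not ranked. Klk1b26 stood at -1.04, -0.89, -0.20, -0.16 and -0.52 in the unirradiated and -4.81, -6.40, -5.70, -3.77 and -4.47 in the irradiated arrays, and Klk1b5 at -0.71, -0.46, 0.19, 0.19 and -0.25 and -4.97, -4.55, -5.70, -4.05 and -3.80. Both fell, as did Klk1b3 and Klk1b24, and each of these 4 was well above background on 1 of 5 irradiated arrays. Klk1 fell at least 8.14-fold and Klk1b27 at least 1.82-fold. Klk1, Klk1b27 and the 4 genes before them passed the background filter through the unirradiated arrays alone, so they had to be dimmer at 4 Gy. The direction of the run is therefore not read from these genes. Klk1b4 and Klk1b8 fell 2.93- and 2.50-fold and were measured on every array, and Klk1b21 fell 2.04-fold (well above background on 4 of 5 irradiated arrays). Klk1b8 and Klk1b21 did not pass without the 4 arrays of high hepatocyte level, and Klk1b8 and Klk1b4 did not pass with mesothelium level as a covariate.

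The p53 response was uneven between roles. In the list of p53 targets, 21 of 42 rose and 1 fell (median 0.93, 0.95 within slide 2, 24 higher and 4 lower with the replicate block), against 16.4% of all genes higher. Among arrest genes 5 of 10 rose and 1 fell (median 1.39, 1.66 within slide 2). Of these 10, 3 passed the background filter through the irradiated arrays alone, so they had to be dimmer at 0 Gy, and all 3 rose. Of the 7 that passed through both groups, 2 rose and 1 fell. Over the whole list, 38 genes passed through both groups, of which 18 rose and 1 fell. Cdkn1a, the cyclin-dependent kinase inhibitor p21 (probe at chr17:29237377-29237436), stood at -3.36, -1.44, -2.60, -0.86 and -0.98 in the unirradiated and 1.69, 2.64, 1.90, 2.73 and 1.4 in the irradiated arrays, 15.1-fold higher; its second probe gave 5.06 on the log2 scale against 3.92 for this one. The groups were far apart, yet the unirradiated values ran from -3.36 to -0.86. Ccng1, cyclin G1, rose 4.56-fold, Plk2, a polo-like kinase, 5.81-fold (well above background on 3 of 5 unirradiated arrays), and Gtse1, a microtubule-associated p53 regulator, at least 3.04-fold. Sfn, the 14-3-3 sigma protein, moved the other way and fell 2.25-fold.

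Pro-death p53 targets rose as a group: 10 of 12 rose (median 1.4, 1.62 within slide 2). Phlda3, an inhibitor of AKT signalling (probe at chr1:137665642-137665701), went from 0.38, -0.06, 0.24, 0.42 and 0.69 to 4.08, 4.11, 4.08, 3.67 and 4.13 and had the lowest adjusted p of all genes (9.03e-06; 12.8-fold, 0.00534 with slide as a block). Irradiated replicate 4 was the lowest of the irradiated arrays and still lay 2.99 above the highest unirradiated one. Bbc3, which encodes PUMA, and Bax, both BCL-2 family proteins that open the mitochondrial membrane, rose 3.96-fold and 3.67-fold, and their relative Pmaip1, NOXA, 2.68-fold. Death receptor genes Tnfrsf10b and Fas rose 3.19-fold and 2.05-fold. Of the feedback genes on p53, 2 of 5 rose (median 0.80, 0.89 within slide 2), among them Mdm2, the ubiquitin ligase of p53 (2.34-fold). Of the targets in DNA repair and nucleotide supply, 1 of 4 rose (median 0.25, 0.30 within slide 2, 0 higher and 0 lower with normexp). Among targets in metabolism, redox and secretion, 3 of 11 rose (median -0.11, 0.40 within slide 2, 4 higher and 2 lower with the replicate block, median 0.40 in the authors' values). Rps27l, a ribosomal protein-like p53 target, rose 2.19-fold.

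Transcripts of the upstream proteins did not pass. Trp53, which encodes p53 itself, was at -0.48 ± 0.27 (adjusted p = 0.217; -0.74 and 0.00820 without unirradiated replicate 4) and Atm at -0.75 ± 0.35 (adjusted p = 0.138; 0.0123 with the replicate block). For all 42 p53 targets tested, the counts were 10 higher and 0 lower with normexp background correction, 20 higher and 1 lower without the 4 arrays of high hepatocyte level, 22 higher and 1 lower with mesothelium level as a covariate and 10 higher and 0 lower with hepatocyte and mesothelium levels together.

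Interferon system genes that passed the test rose. Of its list, 68 of 105 rose (median 1.04, 1.02 within slide 2, 79 higher and 2 lower with the replicate block). Of the nucleic acid sensors, 12 of 14 rose (median 2.38, 2.33 within slide 2). They included the oligoadenylate synthetases Oasl1, Oas2 and Oas1a, which activate RNA degradation on sensing double-stranded RNA and rose 9.55-fold, 9.50-fold and 9.13-fold, and Zbp1, a sensor of Z-form nucleic acid, which rose 5.97-fold. Eif2ak2, the kinase PKR that halts translation, stood at -1.53, -1.43, -1.34, -1.73 and -1.62 and 0.71, 0.67, 0.80, 0.66 and 0.90 in the 2 groups, 4.85-fold higher (adjusted p = 1.92e-05). Ddx60, a helicase that assists RIG-I, rose at least 2.14-fold, being well above background on 4 of 5 irradiated arrays.

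Effectors and modifiers rose with the sensors. Of the antiviral effectors, 22 of 29 rose (median 1.82, 1.51 within slide 2, 22 higher and 1 lower with the replicate block). Ifit1 rose 12-fold. Mx1, a dynamin-like GTPase against RNA viruses (probe at chr16:97668644-97668703), moved from -1.13, -0.75, -0.56, -0.88 and -0.76 to 2.56, 2.51, 2.68, 1.86 and 2.62, 9.61-fold higher with no overlap. Ifi27l2a, a mitochondrial interferon-induced protein, rose 5.31-fold (adjusted p = 1.92e-05). Of the ubiquitin-like and ADP-ribose modifiers, 8 of 11 rose (median 1.21, 1.36 within slide 2): Usp18, which removes ISG15 from proteins and damps interferon signalling, rose 7.20-fold, Parp12, a mono-ADP-ribosyltransferase, 4.14-fold, and Rnf213, a ubiquitin ligase, 3.20-fold. Isg15 itself, the ubiquitin-like modifier, did not pass. It stood at 5.09, 5.49, 5.72, 4.67 and 6.22 in the unirradiated and 6.42, 4.87, 6.26, 5.42 and 6.74 in the irradiated arrays, ranges that overlap (0.51 ± 0.40, adjusted p = 0.381; -0.37 within slide 2).

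Medians were lower upstream and in antigen presentation. Of interferon-inducible GTPases, which attack pathogen vacuoles, 10 of 17 rose (median 1.08, 1.12 within slide 2), with Igtp, Gbp2 and Irgm2 up 4.52-, 4.01- and 3.47-fold. Of the transcription factors, 5 of 9 rose (median 0.61, 0.70 within slide 2, 6 higher and 1 lower with the replicate block), including Stat2 (2.15-fold), which carries the signal to DNA. Of the interferons and their receptors, 2 of 8 rose (median 0.46, 0.31 within slide 2, 4 higher and 0 lower with the replicate block). Ifng, interferon gamma, rose 3.86-fold, and Ifnar1, a chain of the type I receptor, was at -0.25 ± 0.18 (adjusted p = 0.330), its probes running from -0.25 to 0.35. Of MHC class I genes, which show peptides to CD8 T cells, 9 of 17 rose (median 0.54, 0.61 within slide 2), with B2m, the invariant chain, up 2.33-fold and Nlrc5, their transactivator, up 2.03-fold. For the 105 interferon system genes the counts were 41 higher and 0 lower with normexp background correction, 61 higher and 1 lower without the 4 arrays of high hepatocyte level, 73 higher and 0 lower with mesothelium level as a covariate and 41 higher and 0 lower with hepatocyte and mesothelium levels together.

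Interferon acts through a promoter element, the interferon-stimulated response element, which transcription factors activated by its receptor bind. Its 10-letter core, of which 2 letters are free (capitals in the sequences below mark it), was searched on both strands in the 250 bases before the start of each gene in RefSeq's promoters (GRCm38.p6), which matched 10717 of the 16355 genes. It was present in 3.31% of all tested genes' promoters, in 4.97% of those that rose and in 2.89% of those that fell. In the interferon list it was present in 21 of 51 promoters of genes that rose and in 7 of 30 of genes that did not pass. It was present at 5 of 6 Ifit genes, 3 of 6 oligoadenylate synthetases and 3 of 8 Schlafen genes, and at 0 of 19 killer cell lectin-like receptors. The gamma-activated site TTCNNNGAA was present in 7.49% of all, 7.93% of risen and 7.03% of fallen genes' promoters, and in the interferon list in 10 of 51 that rose and 10 of 30 that did not pass. These are matches of letters, and overlapping matches count as 1 capital stretch.

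The stretches that hold the matches are shown for Ifit3, Ifit1, Oas1a and Ddx60, which rose, and for Isg15, which has 3 overlapping matches and did not pass. Sequences run 5′ to 3′ along the gene's strand and end at or before the last base upstream of the start; capitals mark the element, which appears as its reverse complement where it lies on the other strand.
Ifit3 (chr19:34583358-34583431, plus strand): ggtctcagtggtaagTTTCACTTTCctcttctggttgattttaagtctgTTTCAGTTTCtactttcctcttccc
Ifit1 (chr19:34640770-34640828, plus strand): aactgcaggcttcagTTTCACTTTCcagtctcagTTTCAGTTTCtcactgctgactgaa
Oas1a (chr5:120907526-120907565, minus strand): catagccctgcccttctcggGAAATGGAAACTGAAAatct
Ddx60 (chr8:61928019-61928086, plus strand): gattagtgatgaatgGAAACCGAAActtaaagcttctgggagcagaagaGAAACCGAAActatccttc
Isg15 (chr4:156200860-156200911, minus strand): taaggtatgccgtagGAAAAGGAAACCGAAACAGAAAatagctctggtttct
Ifit3b holds the same 74 letters as Ifit3 at chr19:34607754-34607827. Both copies and Ifit1 carry 2 elements on the other strand, Ddx60 2 on the gene's strand, Oas1a 2 that overlap, and Isg15 3 that overlap.

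B cell genes fell in most roles. Of the list, 4 of 59 rose and 41 fell (median -1.48, -1.53 within slide 2), against 10.7% of all genes lower. Of the receptor and co-receptors, 1 of 13 rose and 9 fell (median -1.51, -1.56 within slide 2). Besides Fcer2a, Cr2, the complement receptor CD21, stood at 3.16, 2.65, 3.59, 2.31 and 2.86 and fell to -0.22, -0.15, -0.32, -1.46 and -0.97, a fall of 11.6-fold, and the signalling chains Cd79a and Cd79b fell 4.15-fold and 3.39-fold. Cd81, a tetraspanin of many cell types, rose 2.52-fold. Of the signalling proteins, 2 of 9 rose and 4 fell (median -0.18, -0.41 within slide 2), with the Fc receptor-like Fcrla and the adaptors Blnk and Bank1 down 4.44-, 3.32- and 3.02-fold.

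The transcription factors that define the lineage fell together: 10 of 11 fell (median -1.48, -1.53 within slide 2). Ebf1, which specifies B cells, went from 1.38, 0.69, 1.24, -0.30 and 0.97 to -2.08, -0.96, -1.74, -1.27 and -2.60, a fall of 5.75-fold, and Bach2 and Bcl11a fell 4.96-fold and 4.91-fold. Of the survival and homing receptors, 4 of 5 fell (median -2.04, -2.07 within slide 2), among them Tnfrsf13c, the BAFF receptor (4.96-fold), and Cxcr5, the receptor that leads B cells to follicles (4.11-fold). Of the genes of immature B cells, 3 of 4 fell (median -1.93, -2.32 within slide 2), including Dntt, terminal transferase, 6.40-fold (well above background on 3 of 5 irradiated arrays) lower. Zfp318, which controls IgD expression, fell 3.39-fold, its probes running from -3.82 to -1.76. Plasma cell genes gave a different picture: none of 5 passed limma's test (2 had an unadjusted p under 0.05), median 0.48, 0.49 within slide 2, 2 higher and 1 lower with the replicate block, median -0.03 in the authors' values. Jchain, the joining chain of secreted antibody, stood at -0.61, 2.56, 0.08, -0.87 and -0.19 and 1.38, -0.12, 1.31, 0.50 and 1.71, and its call rested on 1 array (0.76 ± 0.63, adjusted p = 0.403; 1.35 and 0.0339 without unirradiated replicate 2). Mzb1, a chaperone of antibody assembly, was at -0.41 ± 0.27 (adjusted p = 0.291).

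MHC class II genes, which present antigen to CD4 T cells, fell almost throughout: 1 of 12 rose and 11 fell (median -1.52, -1.56 within slide 2). H2-Ob and H2-Oa, the chains of the H2-O peptide-loading regulator, fell 6.24-fold and 3.70-fold, and H2-Eb2 5.25-fold. Ctss, a protease of the same pathway that monocytes also express, was the 1 member that rose (1.43-fold, adjusted p = 0.0490), and it missed the threshold when any of 8 arrays was left out, at adjusted p = 0.057 to 0.111. It stayed called without irradiated replicate 4 or without unirradiated replicate 2. For the 59 B cell list genes the counts were 1 higher and 35 lower with normexp background correction, 3 higher and 35 lower without the 4 arrays of high hepatocyte level, 5 higher and 19 lower with mesothelium level as a covariate and 0 higher and 5 lower with hepatocyte and mesothelium levels together.

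Among T cell genes, the CD8 chains and some genes of naive cells fell. Of the receptor and co-receptors, 3 of 13 fell (median -0.37, -0.26 within slide 2, 0 higher and 5 lower with the replicate block). Cd8b1 and Cd8a, the chains of the CD8 co-receptor, fell 6.11-fold and 5.72-fold: Cd8b1 stood at 2.66, 1.86, 2.86, 2.43 and 2.63 and then 0.41, -1.22, 0.43, -1.03 and 0.79. Cd4 fell 1.51-fold, with groups that did not overlap but lay 0.06 apart. Cd3e, a chain of the T cell receptor complex, differed by -0.22 ± 0.25 (adjusted p = 0.559). Of the naive state and homing genes, 3 of 8 fell (median -1.05, -0.79 within slide 2), with Ccr7, which guides naive cells to lymph nodes, down 5.36-fold. Of the transcription factors, 2 of 10 rose and 2 fell (median -0.56, -0.32 within slide 2, 3 higher and 5 lower with the replicate block, median 0.02 with normexp): Tcf7 and Lef1 of naive T cells fell 3.54-fold and 3.40-fold, and Tbx21, T-bet of effector and NK cells, rose 3.26-fold. Over the whole list 3 of 41 rose and 8 fell (median -0.16, -0.11 within slide 2, 7 higher and 14 lower with the replicate block). Without irradiated replicate 4 the list had 10 higher and 8 lower, and for the 41 genes tested the counts were 1 higher and 7 lower with normexp background correction, 2 higher and 8 lower without the 4 arrays of high hepatocyte level, 7 higher and 2 lower with mesothelium level as a covariate and 2 higher and 3 lower with hepatocyte and mesothelium levels together.

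Most natural killer genes of the list rose. Of their receptors, 14 of 18 rose (median 1.74, 1.78 within slide 2). The inhibitory receptor chain Klrc1, NKG2A, went from 0.97, 0.64, 1.47, -0.29 and 0.25 to 3.44, 1.56, 3.55, 1.93 and 3.53, 4.58-fold higher with groups just apart, and Klrb1c, NK1.1, rose 4.33-fold. Of the granule and death effectors, 7 of 10 rose (median 1.42, 1.4 within slide 2), with the proteases Gzmb and Gzma up 6.24-fold and 4.10-fold and Fasl, the ligand of the death receptor FAS, up 4.77-fold. Prf1, perforin, missed the threshold (1.35 ± 0.47, adjusted p = 0.0549) and passed with the replicate block (0.00296), without irradiated replicate 2 (0.0292) and without irradiated replicate 4 (0.0215). All 4 chemokine genes tested rose, Xcl1 by 3.73-fold, but the groups overlapped in each, and none of the 4 passed with normexp correction or without the 4 arrays of high hepatocyte level. For the 32 genes tested the counts were 5 higher and 0 lower with normexp background correction, 11 higher and 0 lower without the 4 arrays of high hepatocyte level, 27 higher and 0 lower with mesothelium level as a covariate and 11 higher and 0 lower with hepatocyte and mesothelium levels together. Of Klr genes, 24 of 26 rose (median 1.76, 1.73 within slide 2, 13 higher and 0 lower with normexp, 14 and 0 without the 4 arrays of high hepatocyte level, 12 and 0 with hepatocyte and mesothelium levels as covariates), and in 18 the groups did not overlap. Klrc3 was the largest at 5.04-fold (well above background on 4 of 5 unirradiated arrays).

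Neutrophil genes rose in most roles. Of the chemotactic and danger receptors, 14 of 15 rose (median 1.93, 1.66 within slide 2). Il1r2, the decoy receptor for interleukin-1, went from -0.34, -2.0, -0.11, -1.68 and -1.01 to 2.42, 1.94, 2.06, 1.64 and 2.87, 9.28-fold higher. Fpr2, a formyl peptide receptor, and Cxcr2, the receptor that draws neutrophils into blood and tissue, rose 6.53-fold and 5.76-fold, and Ly6g, the defining surface marker, 3.30-fold. Of cytosolic and secreted proteins, 10 of 13 rose and 1 fell (median 2.30, 1.98 within slide 2). The stefins Stfa1, Stfa2l1 and Stfa2, cysteine protease inhibitors with near-identical copies, rose 9.51-, 9.33- and 9.09-fold, whereas Stfa3 of the same family fell 4.51-fold from 2.75, 2.27, 2.19, 2.25 and 2.54 to -0.18, 0.50, 0.88, -0.63 and 0.59. Of the secondary and tertiary granule genes, 5 of 9 rose and 1 fell (median 1.81, 1.39 within slide 2), with the collagenase Mmp8, the gelatinase Mmp9 and the iron-scavenging Lcn2 up 4.86-, 4.38- and 4.23-fold. Of the subunits of the oxidase that makes superoxide, 2 of 6 rose (median 0.46, 0.27 within slide 2), with 0 higher with normexp and 1 without the 4 arrays of high hepatocyte level. Of the primary granule genes, made in marrow progenitors, 1 of 4 fell (median -0.42, -0.60 within slide 2): Mpo, myeloperoxidase, fell 4.05-fold (well above background on 1 of 5 irradiated arrays), was well above it on 4 of 5 unirradiated arrays and missed the threshold without any of 7 arrays (adjusted p = 0.0548 to 0.0902). For the 47 neutrophil genes the counts were 23 higher and 1 lower with normexp background correction, 31 higher and 4 lower without the 4 arrays of high hepatocyte level, 28 higher and 2 lower with mesothelium level as a covariate and 22 higher and 1 lower with hepatocyte and mesothelium levels together.

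Monocyte genes rose in part. Of the genes shared by monocyte subsets, 8 of 15 rose (median 1.17, 0.83 within slide 2, 5 higher and 0 lower with normexp, 4 and 0 with hepatocyte and mesothelium levels as covariates), among them the activating Fc receptors Fcgr4 and Fcgr1 (4.17- and 3.85-fold) and Cd300ld, an activating receptor (3.72-fold). Of the non-classical genes, 1 of 7 fell (median 0.45, 0.11 within slide 2). Of the classical genes, 2 of 4 rose and 1 fell (median 0.60, 0.35 within slide 2), with the coagulation factor F13a1 up 3.60-fold. Csf1r, the receptor for the growth factor of macrophages, was at 0.62 ± 0.25 (adjusted p = 0.0895): its groups did not overlap, at 4.28, 5.49, 5.02, 5.46 and 5.50 and 5.66, 6.13, 5.76, 5.62 and 5.67.

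Platelet genes rose in every role listed. Of the adhesion and activation receptors, 12 of 12 rose (median 2.20, 2.01 within slide 2). P2ry1 and P2ry12, the ADP receptors, rose 6.86- and 5.02-fold, F2rl2, the thrombin receptor PAR3, 5.03-fold (well above background on 4 of 5 unirradiated arrays), and Itga2b, the fibrinogen receptor chain, 4.21-fold. P2ry1 stood at 0.59, -0.03, 0.23, -0.43 and -0.01 and then 3.21, 2.57, 2.95, 1.91 and 3.61. Of the cytoskeleton and signalling genes, 11 of 12 rose (median 2.02, 1.76 within slide 2). Tubb1, the tubulin of the platelet rim, went from 1.46, 0.49, 1.11, 1.03 and 1.14 to 4.05, 3.98, 3.70, 3.34 and 4.53, 7.32-fold higher, and Rab27b of granule release, Rgs18, a brake on platelet receptors, and Tbxas1, thromboxane synthase, rose 5.25-, 5.03- and 4.27-fold. Of the granule cargo, 8 of 9 rose (median 1.57, 1.55 within slide 2), with Thbs1, Mmrn1, Ppbp and Pf4 up 4.97-, 3.55-, 3.24- and 2.33-fold. Of the megakaryocyte transcription factors, 4 of 5 rose (median 1.84, 1.61 within slide 2), with Gata1, Gfi1b and Nfe2 up 4.51-, 4.00- and 3.59-fold. For the 38 platelet genes the counts were 32 higher and 0 lower with normexp background correction, 35 higher and 0 lower without the 4 arrays of high hepatocyte level, 34 higher and 1 lower with mesothelium level as a covariate and 19 higher and 0 lower with hepatocyte and mesothelium levels together.

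Erythroid genes, the RNA of young red cells, fell more often than they rose in the main fit. Of 47 tested, 7 rose (14.9%, against 16.4% of all genes) and 17 fell (36.2%, against 10.7%). Of the membrane genes, 2 of 13 rose and 6 fell (median -1.68, -2.15 within slide 2): Ank1, ankyrin, and Slc4a1, the band 3 anion exchanger, fell 6.63-fold and 6.22-fold, while Aqp1, a water channel, and Sptb, the spectrin beta chain, rose 3.03-fold and 3.68-fold. Of the transcription factors, 2 of 5 rose and 2 fell (median -0.32, -0.43 within slide 2, median 0.20 with normexp, median 0.80 in the authors' values): Tal1 rose 5.67-fold and Gata1 as above, both also used by megakaryocytes, and Sox6 and Lmo2 fell at least 2.19-fold and 2.64-fold. Of haem synthesis genes, 2 of 8 fell (median -0.40, -0.76 within slide 2). Fech, which inserts the iron, fell 2.34-fold, and Alas2, the first enzyme, was at -0.30 ± 0.20 (adjusted p = 0.306).

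Of the globins and carriers, 4 of 10 fell (median -0.61, -1.04 within slide 2). Bpgm, which makes the oxygen affinity regulator of red cells, fell 2.88-fold, and Car2, carbonic anhydrase, 3.96-fold, although the latter missed the threshold without any of 7 arrays (adjusted p = 0.0614 to 0.0894). Of the iron uptake and receptor genes, 3 of 8 rose and 1 fell (median 0.91, 0.40 within slide 2): Epor, the erythropoietin receptor, rose 5.38-fold, Slc40a1, the iron exporter ferroportin, 3.14-fold, and Slc25a37, the mitochondrial iron importer, fell 3.55-fold (probes -1.83 and -0.71). For the 47 genes the counts were 5 higher and 8 lower with normexp background correction, 8 higher and 14 lower without the 4 arrays of high hepatocyte level, 7 higher and 1 lower with mesothelium level as a covariate and 3 higher and 3 lower with hepatocyte and mesothelium levels together. Stem and progenitor genes were mixed: 6 of 13 rose and 3 fell (median 1.04, 0.72 within slide 2, 5 higher and 1 lower with normexp, 6 and 1 without the 4 arrays of high hepatocyte level, 3 and 0 with hepatocyte and mesothelium levels as covariates), with Cd34 and Gata2 up 4.83-fold and 4.04-fold.

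**Figure D3:**
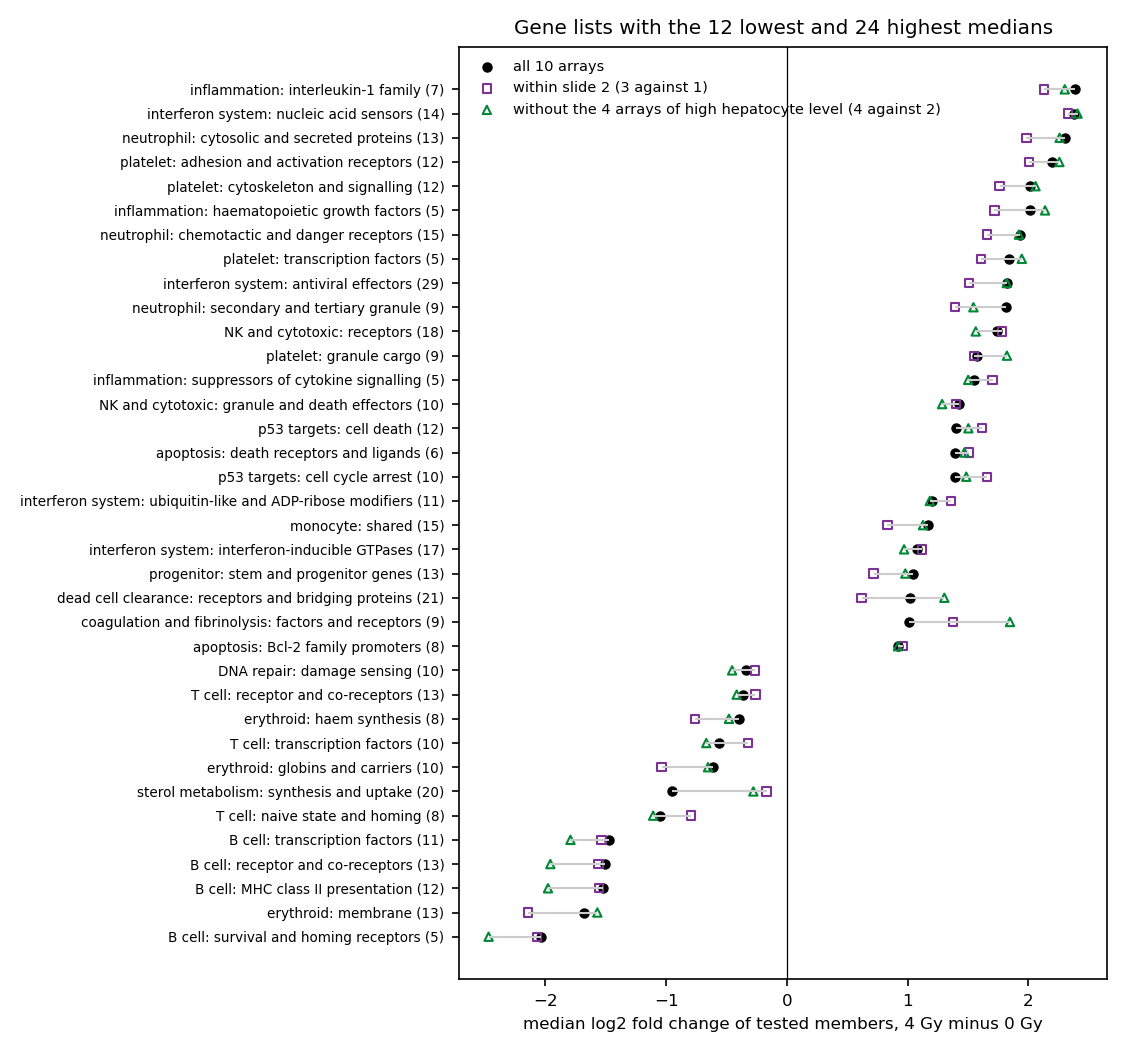
The median log2 fold change of the tested members (x axis, 4 Gy minus 0 Gy) is shown for the gene list roles with the 12 lowest and 24 highest medians, number of tested members in brackets: black circles for all 10 arrays, purple squares for the difference within slide 2 (3 against 1 array), green triangles without the 4 arrays of high hepatocyte level (4 against 2). The B cell roles shown lie between -2.04 and -1.48, the 4 platelet roles between 1.57 and 2.20, and the 3 symbols of a role fall on the same side of 0 throughout. Not shown are the B cell roles of receptor signalling (-0.18), plasma cell genes (0.48) and immature B cell genes (-1.93, few tested members).

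Beyond p53 targets, the cell death machinery rose in part. Of the death receptors and ligands, 5 of 6 rose (median 1.39, 1.51 within slide 2), including Tnfsf10, TRAIL (2.81-fold). Of the Bcl-2 family promoters of death, 4 of 8 rose (median 0.92, 0.96 within slide 2, 6 higher and 1 lower with the replicate block), including Bid (2.35-fold). Of caspases and apoptosome genes, 5 of 9 rose (median 0.86, 0.92 within slide 2): Casp4 of the inflammatory pathway rose 2.37-fold. Of the inhibitors, 3 of 8 rose (median 0.54, 0.63 within slide 2, 5 higher and 1 lower with the replicate block), with Cflar, which blocks caspase 8, up 3.62-fold (its 4 probes from 0.67 to 1.86) and Birc2, cIAP1, up 3.21-fold. For the 31 genes the counts were 8 higher and 0 lower with normexp background correction, 15 higher and 1 lower without the 4 arrays of high hepatocyte level, 20 higher and 0 lower with mesothelium level as a covariate and 7 higher and 0 lower with hepatocyte and mesothelium levels together.

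Cytokine genes rose in selected classes. Of the interleukin-1 family, 5 of 7 rose (median 2.39, 2.13 within slide 2): Il1b rose 5.24-fold and its antagonist Il1rn 5.57-fold (well above background on 2 of 5 unirradiated arrays). Of the 7, 2 passed the background filter through the irradiated arrays alone, so they had to be dimmer at 0 Gy, and both rose. Of the 5 that passed through both groups, 3 rose. Of the haematopoietic growth factors, 3 of 5 rose (median 2.01, 1.72 within slide 2): Il15, which sustains NK cells, went from -1.85, -2.37, -2.36, -3.25 and -2.10 to 0.46, -0.46, 0.13, -1.15 and 0.73, 5.01-fold higher, Tnfsf13b, the B cell survival factor BAFF, rose 4.03-fold, and Csf2, GM-CSF, at least 2.62-fold. Of these 5 growth factor genes, 1 passed the filter through the irradiated arrays alone and rose, and of the 4 that passed through both groups 2 rose. BAFF and its receptor gene moved in opposite directions. Of the suppressors of cytokine signalling, 4 of 5 rose (median 1.55, 1.70 within slide 2), with Socs2, Socs1, Cish and Socs3 up 4.11-, 3.16-, 2.93- and 2.36-fold. Of the NF-kB factors and their inhibitors, 1 of 10 rose and 1 fell (median -0.14, -0.21 within slide 2, 1 higher and 2 lower with the replicate block). Chemokines Ccl17 and Ccl2 rose 5.92-fold (well above background on 4 of 5 unirradiated arrays) and 5.13-fold (well above background on 2 of 5 unirradiated arrays), and of CC chemokines 6 of 12 rose (median 1.20, 1.01 within slide 2, 6 higher and 1 lower with the replicate block, 1 and 0 with normexp, 3 and 0 without the 4 arrays of high hepatocyte level, 2 and 0 with hepatocyte and mesothelium levels as covariates). For the 27 genes the counts were 7 higher and 0 lower with normexp background correction, 13 higher and 1 lower without the 4 arrays of high hepatocyte level, 9 higher and 0 lower with mesothelium level as a covariate and 7 higher and 0 lower with hepatocyte and mesothelium levels together.

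Stress and metabolic lists had medians under 1. Of glycolytic enzymes and transporters, 10 of 19 rose (median 0.60, 0.67 within slide 2, 5 higher and 0 lower with normexp, 5 and 0 with hepatocyte and mesothelium levels as covariates): Slc2a3, a glucose transporter, rose 4.99-fold, Pfkfb4, a regulator of the pathway's flux, 3.23-fold, and the hexokinases Hk3 and Hk2 3.02- and 2.58-fold. Gapdh, a usual reference gene, was at 0.60 ± 0.26 (adjusted p = 0.119; 0.00986 with the replicate block, 0.0370 without unirradiated replicate 4), with 8 probes from -0.03 to 0.89, and Actb, another, rose 1.84-fold. Of antioxidant genes, 6 of 16 rose and 2 fell (median 0.51, 0.53 within slide 2, 2 higher and 0 lower with hepatocyte and mesothelium levels as covariates): Srxn1, which repairs peroxiredoxins, Gsr, glutathione reductase, and Gpx4 rose 4.82-, 3.59- and 3.0-fold, while Gpx1, abundant in red cells, and Sod2 of mitochondria fell 2.35-fold and 1.68-fold.

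Of unfolded protein response targets, 6 of 15 rose (median 0.51, 0.63 within slide 2, 9 higher and 1 lower with the replicate block, 1 and 0 with normexp, 2 and 0 with hepatocyte and mesothelium levels as covariates), with Chac1 and Ddit3, the stress factor CHOP, up 3.39-fold and 2.28-fold. Of glucocorticoid-responsive genes, 3 of 12 rose (median 0.34, 0.39 within slide 2): Zbtb16, Cebpd and Dusp1 rose 2.69-, 4.51- and 3.32-fold. Of the circadian clock genes, 3 of 12 rose (median 0.14, 0.81 within slide 2, 4 higher and 1 lower with the replicate block, 1 and 0 with normexp, 0 and 0 with hepatocyte and mesothelium levels as covariates, median -0.07 scaled over probes above background), with the repressors Nfil3 and Bhlhe41 up 2.81-fold and 2.81-fold (well above background on 4 of 5 unirradiated arrays). Of hypoxia targets, 2 of 13 rose and 1 fell (median 0.25, 0.42 within slide 2, 3 higher and 2 lower with the replicate block, median -0.22 in the authors' values), Ndrg1 being the largest at 4.37-fold. The hypoxia shares, 15.4% higher and 7.69% lower, were no larger than those of all genes, 16.4% and 10.7%. In the glucocorticoid and clock lists 25% were higher, which in lists of 12 is little above the share of all genes. Of immediate early genes, 7 of 18 rose and 1 fell (median 0.67, 0.57 within slide 2, 12 higher and 2 lower with the replicate block, 1 and 0 with normexp, 2 and 0 with hepatocyte and mesothelium levels as covariates). Of lysosomal genes, 7 of 16 rose (median 0.38, 0.37 within slide 2, 1 higher and 0 lower with normexp, 5 and 2 scaled over probes above background, 4 and 0 without the 4 arrays of high hepatocyte level, 0 and 0 with hepatocyte and mesothelium levels as covariates, median -0.19 in the authors' values), and with mesothelium level as a covariate 1 was higher.

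Few DNA repair genes passed the test. Of 45 tested, 1 rose (2.22%, against 16.4% of all genes) and 9 fell (20%, against 10.7%), with a median of -0.23. These counts depended on the setting (2 higher and 15 lower with the replicate block, 0 and 4 without unirradiated replicate 3, 0 and 5 without irradiated replicate 5, 0 and 19 scaled over probes above background, 0 and 1 with normexp). Of excision and mismatch repair, 6 of 21 fell (median -0.23, -0.26 within slide 2, 1 higher and 8 lower with the replicate block, 0 and 1 with normexp, 0 and 11 scaled over probes above background, 0 and 0 with hepatocyte and mesothelium levels as covariates), including Parp1, which senses strand breaks (2.89-fold lower), and Ercc2, a helicase of nucleotide excision repair (1.69-fold lower). Of end joining, 2 of 9 fell (median -0.13, -0.14 within slide 2, 0 higher and 0 lower with normexp), including Prkdc, the catalytic subunit of the DNA-dependent kinase (1.81-fold lower). Of cell cycle genes of G1 and S phase, none of 15 passed limma's test (1 had an unadjusted p under 0.05), median -0.15, -0.05 within slide 2, 0 higher and 3 lower with the replicate block, 0 and 4 scaled over probes above background. In G2 and mitosis 2 of 15 fell (median 0.24, 0.17 within slide 2, 0 higher and 4 lower with the replicate block, 0 and 0 with hepatocyte and mesothelium levels as covariates): Nusap1, a spindle protein, stood at 3.37, 3.50, 3.51, 1.95 and 3.62 and fell to 1.57, 0.44, 1.45, -0.64 and 1.84, 4.79-fold lower, and Ccna2, cyclin A2, fell 3.21-fold. The share of this role that fell, 13.3%, was near the 10.7% of all genes. Of fatty acid oxidation enzymes, none of 10 passed limma's test (1 had an unadjusted p under 0.05), median -0.08, 0.34 within slide 2, 2 higher and 0 lower without the 4 arrays of high hepatocyte level. Of sterol synthesis and uptake genes, 1 of 20 rose and 2 fell (median -0.95, -0.17 within slide 2, 2 higher and 9 lower with the replicate block, 0 and 0 with normexp, 0 and 0 with hepatocyte and mesothelium levels as covariates), and the sterol list had 2 higher and 8 lower without irradiated replicate 4. Of the complement components, largely made in liver, none of 9 passed limma's test (0 had an unadjusted p under 0.05), median 0.78, 0.25 within slide 2.

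Seen by gene family, increases were frequent among innate receptors and membrane proteins. Families were gathered by symbol, and 78 of 79 had 5 or more tested genes. The share that rose was over 3 times that of all genes in 25 of the 78, and the share that fell in 3. Of paired immunoglobulin-like receptors, which tune myeloid activation, 10 of 12 rose (median 1.49, 1.26 within slide 2, 6 higher and 0 lower with hepatocyte and mesothelium levels as covariates), with Pira6, Lilr4b and Lilrb4a up 3.95-fold (well above background on 1 of 5 unirradiated arrays), 3.73-fold and 3.55-fold. Of Ly6 proteins, 9 of 12 rose and 2 fell (median 1.72, 1.30 within slide 2, 4 higher and 0 lower with hepatocyte and mesothelium levels as covariates). Of MHC class Ib molecules, 9 of 13 rose (median 0.87, 0.93 within slide 2, 1 higher and 0 lower with normexp, 2 and 0 with hepatocyte and mesothelium levels as covariates). Of NOD-like receptors, 9 of 14 rose and 1 fell (median 0.98, 0.74 within slide 2, 1 higher and 0 lower with normexp, 2 and 0 with hepatocyte and mesothelium levels as covariates). Of Toll-like receptors, 5 of 9 rose and 2 fell (median 1.02, 1.06 within slide 2, 6 higher and 1 lower with the replicate block, 3 and 1 with normexp, 2 and 0 with hepatocyte and mesothelium levels as covariates): Tlr6 and Tlr13 rose 3.16- and 2.48-fold and Tlr1, the neighbour and relative of Tlr6, fell 2.52-fold. Siglec1, an interferon-induced sialic acid receptor of macrophages, rose 7.97-fold (well above background on 1 of 5 unirradiated arrays).

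Trafficking and signalling families followed. Of Rab GTPases, the switches of vesicle traffic, 26 of 61 rose and 3 fell (median 0.55, 0.52 within slide 2, 5 higher and 2 lower with normexp, 20 and 7 scaled over probes above background, 7 and 0 with hepatocyte and mesothelium levels as covariates), with Rab13 and Rab22a up 4.47-fold (well above background on 1 of 5 unirradiated arrays) and 3.02-fold. Of tetraspanins, 11 of 24 rose and 2 fell (median 0.62, 0.98 within slide 2, 6 higher and 1 lower with normexp, 9 and 5 scaled over probes above background, 3 and 0 with hepatocyte and mesothelium levels as covariates), with Tspan18, Cd151 and Tspan2 up 4.34-, 3.89- and 3.74-fold. Of integrins, 12 of 21 rose and 1 fell (median 0.97, 1.05 within slide 2, 11 higher and 0 lower with the replicate block, 6 and 0 with normexp, 6 and 0 with hepatocyte and mesothelium levels as covariates), with Itgad up at least 2.95-fold and Itgb5 4.59-fold. Of RGS proteins, which shorten G protein signals, 7 of 13 rose and 2 fell (median 1.36, 1.14 within slide 2, 4 higher and 0 lower with normexp, 4 and 1 with hepatocyte and mesothelium levels as covariates), with Rgs1 and Rgs10 up 4.76- and 3.80-fold. The 2 probes of Rgs10 differed in sign, at -0.40 and 1.92 on the log2 scale, so its direction is uncertain. Of annexins, calcium-dependent membrane binders, 7 of 10 rose (median 1.01, 1.0 within slide 2, 3 higher and 0 lower with normexp, 4 and 0 with hepatocyte and mesothelium levels as covariates), Anxa1 by 3.51-fold. Of histone genes, 23 of 57 rose and 3 fell (median 0.54, 0.34 within slide 2, 31 higher and 5 lower with the replicate block, 3 and 0 with normexp, 17 and 7 scaled over probes above background, 15 and 2 without the 4 arrays of high hepatocyte level, 9 and 1 with hepatocyte and mesothelium levels as covariates): H2bc23, H2bc6 and H2bc8 rose at least 3.95-fold, 4.20-fold and 3.83-fold, copies whose sequences resemble each other, and H2al2b, a testis variant, fell 4.39-fold (well above background on 2 of 5 irradiated arrays).

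**Figure D4:**
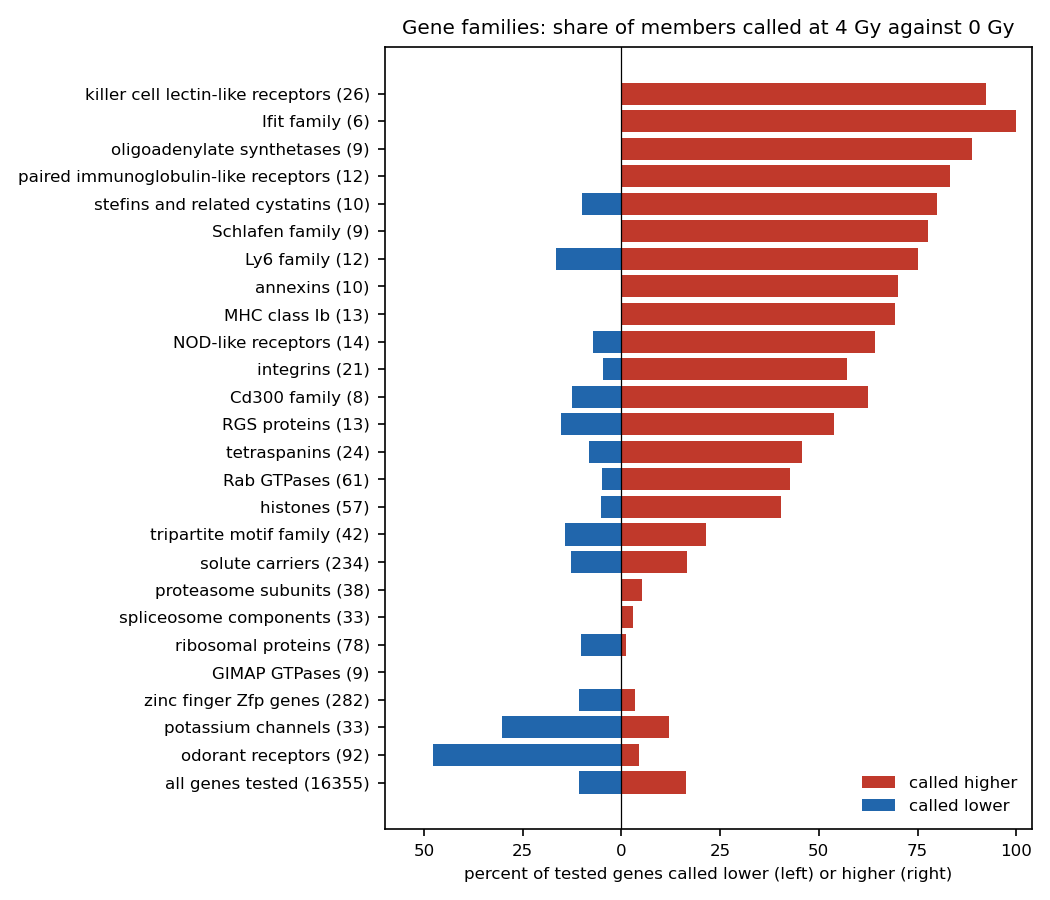
For 25 gene families and for all genes tested (bottom), bars give the percentage of tested members called higher (red, right) or lower (blue, left) at 4 Gy against 0 Gy, with the number tested in brackets. Bars of killer cell lectin-like receptors, Ifit genes and oligoadenylate synthetases reach 92.3, 100 and 88.9%, against 16.4% for all genes, and the odorant receptor bar reaches 47.8% lower, against 10.7%. Of the 92 odorant receptors, 40 passed the filter through the unirradiated arrays alone, 23 of them called lower, so the family's direction is not read from this bar.

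Some families of dim probes had more decreases than increases. Of odorant receptors, the G protein-coupled receptors of the nose, 92 of 1093 listed genes passed the filter and 44 of these fell while 4 rose (median -1.08, -1.08 within slide 2). Their mean level per array was -2.44 to -1.99 at 0 Gy and -3.80 to -2.69 at 4 Gy, without overlap. A gene that passed the filter through 1 group alone had to be dimmer in the other: 40 of the 92 entered through the unirradiated arrays alone (23 of them called lower), 4 through the irradiated arrays alone and 48 through both, of which 21 fell and 2 rose. The direction of the family is therefore not read from these counts. The count also depended on the treatment of background: with normexp correction 3 were lower, 2 higher and the median was 0.03, and without the 4 arrays of high hepatocyte level 15 were lower. Olfr206 fell at least 2.57-fold and Olfr671 6.23-fold (well above background on 1 of 5 irradiated arrays), while Olfr629 went from -2.08, -2.84, -2.83, -2.94 and -2.40 to -0.19, -0.49, -0.47, -1.66 and -0.45, 3.91-fold higher and well above background on all arrays. Of potassium channel genes, 4 of 33 rose and 10 fell (median -0.36, -0.49 within slide 2, 7 higher and 15 lower with the replicate block, 2 and 0 with normexp, 2 and 3 with hepatocyte and mesothelium levels as covariates): Kcnj1, Kcna5 and Kcnk1 fell at least 3.45-fold, at least 2.92-fold and at least 2.07-fold, and Kcnj2 rose at least 1.58-fold. Of Zfp zinc finger genes, 10 of 282 rose and 30 fell (median -0.17, -0.08 within slide 2, 21 higher and 51 lower with the replicate block, 1 and 4 with normexp, 7 and 74 scaled over probes above background, 1 and 0 with hepatocyte and mesothelium levels as covariates, median 0.04 with normexp). The Zfp share that fell, 10.6%, was near the 10.7% of all genes. Through the unirradiated arrays alone entered 7 potassium channel genes, 4 of them called lower, and 20 Zfp genes, 6 of them called lower.

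Housekeeping families lay below or near the background share. Of cytosolic ribosomal proteins, 1 of 78 rose and 8 fell (median -0.30, -0.35 within slide 2, 1 higher and 24 lower with the replicate block, 0 and 0 with normexp, 1 and 52 scaled over probes above background, 1 and 18 without the 4 arrays of high hepatocyte level, 0 and 0 with hepatocyte and mesothelium levels as covariates). Of proteasome subunits, 2 of 38 rose (median 0.17, 0.26 within slide 2, 7 higher and 0 lower with the replicate block, 0 and 0 with normexp, 0 and 0 without the 4 arrays of high hepatocyte level, median -0.04 scaled over probes above background). Of spliceosome components, 1 of 33 rose (median -0.06, -0.08 within slide 2, 1 higher and 3 lower with the replicate block, 1 and 5 scaled over probes above background). Of complex I subunits of mitochondria, 2 of 45 rose and 1 fell (median -0.10, 0.13 within slide 2, 3 higher and 4 lower with the replicate block, 0 and 0 with normexp, 1 and 5 scaled over probes above background, 0 and 0 with hepatocyte and mesothelium levels as covariates). Among GIMAP GTPases, which are lymphocyte proteins, none of 9 passed limma's test (0 had an unadjusted p under 0.05), median 0.26, 0.41 within slide 2, 1 higher and 1 lower with the replicate block.

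Transcripts of other tissues were measured beside these results. Of 32 hepatocyte genes 30 were tested (Cps1 and Serpina1b were not), and none of 30 passed limma's test (0 had an unadjusted p under 0.05), median -3.28, -1.63 within slide 2, 0 higher and 5 lower with the replicate block. Alb, albumin, stood at 7.55, 8.91, -0.05, 9.86 and 3.31 in the unirradiated and -0.14, 3.01, 0.56, 9.0 and -0.74 in the irradiated arrays (-3.58 ± 2.28, adjusted p = 0.278). Ttr, transthyretin, was at -3.87 ± 2.42 (adjusted p = 0.269), Fgb, fibrinogen, at -2.79 ± 2.03 (adjusted p = 0.344), and Apoa1, apolipoprotein A-I, at -3.43 ± 2.37 (adjusted p = 0.316; 0.0493 with the replicate block). The high arrays were unevenly divided (unirradiated replicates 1, 2 and 4 and irradiated replicate 4), and the differences were smaller than the spread. The linear level summed over the 30 genes ran from 40.3 to 9139.9 in the unirradiated and from 101 to 7639.7 in the irradiated arrays, in units of the 75th percentile. Of the 100 genes with the widest spread within groups, 21 were of the hepatocyte list and none of the 100 was called. Of 362 genes whose pooled SD was over 2, 1 was called, lower. A wide spread by itself makes a call unlikely, so these counts do not show how liver transcripts affected the calls.

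Most mesothelial genes tested, from the lining of body cavities, were called higher at 4 Gy. Of 20 listed, 18 were tested (Bnc1 and Upk1b were not), and 13 of 18 rose (median 2.86, 3.29 within slide 2). Of the 18, 9 passed the background filter through the irradiated arrays alone, so they had to be dimmer at 0 Gy, and all 9 rose. Of the 9 that passed through both groups, 4 rose. With normexp correction 4 of the 18 were higher and the median was 0.89. The size of the family's difference is therefore not read from these counts. The mean level of the 18 was -4.36, -2.43, -4.15, -1.56 and -3.42 in the unirradiated and -0.87, 0.21, -0.33, -0.57 and -2.13 in the irradiated arrays, and the summed linear level was 1.61 to 32.8 and 10.5 to 35.3. Efemp1, an extracellular matrix protein, rose 14.3-fold (well above background on 2 of 5 unirradiated arrays), Nkain4, a sodium pump partner, 11.0-fold (well above background on 3 of 5 unirradiated arrays), Igfbp6, a growth factor binding protein, 10.5-fold, and Wt1, the Wilms tumour factor, 9.19-fold (well above background on 1 of 5 unirradiated arrays). Msln, mesothelin, rose 7.45-fold (adjusted p = 0.0344) and missed the threshold without any of 7 arrays (adjusted p = 0.0519 to 0.0818). Of body cavity macrophage genes, 1 of 15 rose (median 1.35, 0.51 within slide 2). Markers of heart muscle, skeletal muscle and lung epithelium were largely at background, with 4 of 13, 2 of 10 and 5 of 11 tested. The part of these transcripts in the results above was not tested beyond the fits with their level as a covariate. With mesothelium level as a covariate 2664 genes were higher and 884 lower, and with hepatocyte and mesothelium levels together 866 and 348.

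**Figure D5:**
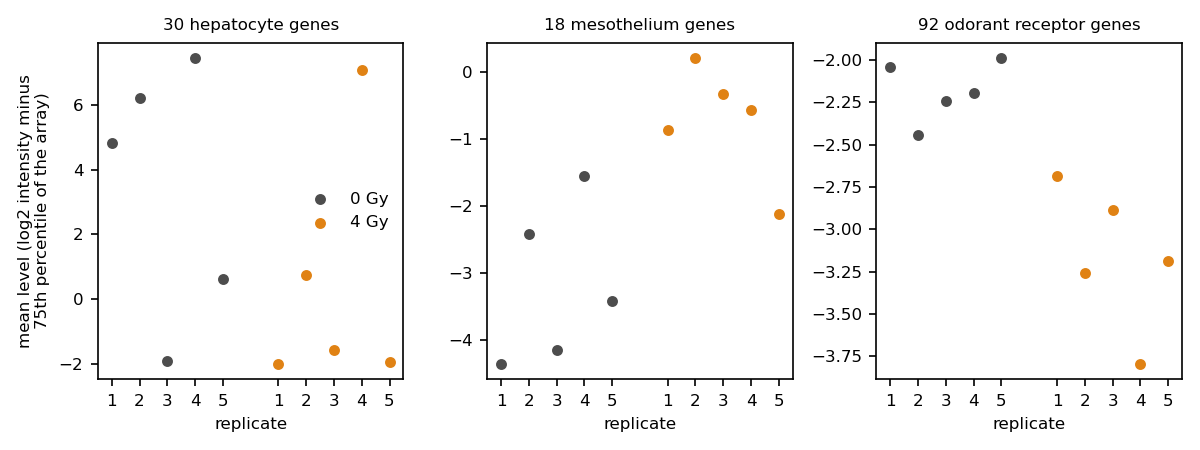
Mean level per array (y axis, log2 intensity minus the 75th percentile) of 30 hepatocyte, 18 mesothelium and 92 odorant receptor genes is plotted by replicate (x axis), grey for 0 Gy and orange for 4 Gy. The hepatocyte level is above 4 on 4 arrays, unirradiated replicates 1, 2 and 4 and irradiated replicate 4. The mesothelium level reaches at most -1.56 on the unirradiated arrays and is at least -0.87 on 4 of 5 irradiated arrays. The odorant receptor levels of the groups do not overlap, many of those genes having entered through the unirradiated arrays alone. Of the 18 mesothelium genes, 9 entered through the irradiated arrays alone.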

How the data were processed

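RNA from blood of 10 young mice was labelled with Cy3 and read on 1-colour Agilent arrays (mm9 design), 5 arrays per group. The scanner files were made with Agilent Feature Extraction 12.0.2, per the submitters' processing notes, and per the file headers spatial and multiplicative detrending were on and background correction off. The deposited intensity (gProcessedSignal) was used as it stood: log2, minus each array's 75th percentile over all non-control probes, without outlier-flagged spots, spots of a probe averaged. The authors' deposited value table is on a log2 scale (r from 0.9988 to 0.9998 with the log2 signal of the same arrays, column medians 5.18 to 5.76, offsets from -0.91 to 0.21), with its centring unstated, and served as an alternative.

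Probes were named through RefSeq accessions (29103 probes), symbols (2974) or synonyms (138), and 7214 kept the array file's name. A probe had to be well above background on 4 of 5 arrays of 1 group, and the probe of highest mean stood for its gene. limma 3.58.1 (R 4.3.3; lmFit, eBayes) compared the groups with Benjamini-Hochberg adjustment over all 16355 genes; 20 genes had 1 missing array. The procedure was tested on simulated data. ± is the SE of a log2 difference. The number of arrays limits precision.

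Alternatives were another background correction, scaling, filter or probe rule, fits of all 20 or of 19 arrays, slide or replicate blocks, tissue levels as covariates and each array left out. Without the 4 arrays of high hepatocyte level and with mesothelium level alone were added after seeing the data. Same-numbered arrays deviated together from their group means (r = 0.14, 0.16, 0.61, 0.82 and 0.42 for replicates 1 to 5). For irradiated replicates 1, 2 and 5, an unirradiated array of another number correlated more (r up to 0.63, 0.22 and 0.64), so the numbers are not established as pairs. The replicate block is given where it changes a named gene's call or moves a count by over 1.5 times, and the labels state no shared source. Members and lists were chosen with earlier results of these data known. Named genes are the largest changes, the lowest p-values and the largest bounds, up to 3 called members per role, family and direction, and a fixed set of reference genes; some genes that this rule names are not reported here. Lists were described by counts and medians, with no test over members.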

Additional observations from a re-analysis of the deposited data

Results flagged for a closer look

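Of 462 sets of 5 values (231 named genes in 2 groups), 23 held an array whose gap to the others exceeded Dixon's critical value of 0.71; chance gives about 1 in 20. Replicate 4 of the irradiated and of the unirradiated group, both of high hepatocyte level, accounted for 9 and 6 of these.

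Irradiated replicate 4 was below the other irradiated arrays for Phlda3 (3.67, the others 4.08 to 4.13), Psrc1 (-1.41, the others -0.81 to -0.57), Mx1 (1.86, the others 2.51 to 2.68), Inka2 (-2.79, the others -2.09 to -1.91), Nlrc5 (2.51, the others 3.40 to 3.61), Cflar (1.99, the others 3.34 to 3.78), Olfr629 (-1.66, the others -0.49 to -0.19) and Tlr1 (-0.65, the others -0.18 to -0.04). It was above them for Fgb (7.75, the others -1.50 to 1.07).

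Unirradiated replicate 4 was below the other unirradiated arrays for B2m (7.02, the others 7.57 to 7.69), Sox6 (-4.81, the others -2.87 to -2.57), Socs3 (1.17, the others 1.72 to 1.87), Nusap1 (1.95, the others 3.37 to 3.62) and Tlr13 (2.18, the others 2.52 to 2.66). It was above them for Usp18 (0.38, the others -0.56 to -0.33).

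Unirradiated replicate 2 was low for Acod1 (-4.73, the others -3.81 to -3.70) and high for Jchain (2.56, the others -0.87 to 0.08) and Olfr206 (-1.47, the others -3.47 to -3.15). Unirradiated replicate 3 was high for Rnf213 (2.89, the others 2.39 to 2.49) and Csf2 (-4.71, the others -6.01 to -5.65), unirradiated replicate 1 for Tspan18 (-0.62, the others -1.75 to -1.69) and H2al2b (-0.78, the others -1.93 to -1.63), and irradiated replicate 2 for Csf1r (6.13, the others 5.62 to 5.76).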

How the results depend on the processing

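With normexp correction 1144 genes passed (832 higher, 312 lower), with slide as a fixed block 112 (63 and 49), with array weights 8066 (4385 and 3681), in the authors' deposited values 2634 of 14307 (1544 and 1090), with hepatocyte and mesothelium levels as covariates 1214 (866 and 348), at an adjusted p under 0.01 2393 (1652 and 741) and at 2-fold or more 2885 (1781 and 1104). The number lower was 3757 when scaled over probes above background, 805 with all 20 arrays in the fit, 2973 with the replicate block, 3369 with hepatocyte level as a covariate and 884 with mesothelium level as a covariate. Leaving out each array gave 3425 to 4871. Where the text gives no other value, the replicate block changed no call of a named gene. Msln reversed to -1.20 with both tissue levels and -0.77 with mesothelium level, and Efemp1 to -0.14 with the latter. Both genes belong to the list whose mean is the mesothelium level, so these fits cannot judge their change, and the cause was not tested. Of 216 named genes that passed, 139 kept their call with normexp, 34 with slide as a block, 202 without the 4 arrays of high hepatocyte level, 172 with mesothelium level and 124 with both tissue levels. A fit without all arrays above the lowest hepatocyte level by more than 2 was not run, as it leaves 1 unirradiated array. Signal near background limits dim genes. Their folds are lower bounds where no array of a group was well above background. Dim genes well above background on at least 1 array of each group have plain folds of uncertain size, and some lose their call with normexp.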
